A study of Ovis aries with 16 samples.

Results

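MIR493, MIR431, MIR433, MIR127, MIR432 and MIR136 are microRNA (miRNA) genes of the imprinted DLK1-DIO3 region. All 6 were found among the 105 miRNAs of the deposited table. They were chosen by name, with earlier results of these data known. The annotation ARS-UI_Ramb_v3.0 orders the region as DLK1, the long non-coding RNA gene GTL2 (the sheep name of MEG3), MIR493, MIR665, RTL1 and then the large MIR379 cluster before DIO3. MIR431, MIR433, MIR127, MIR432 and MIR136 lie inside the span of RTL1, in that order, and MIR493 lies outside it. The other 48 DLK1-DIO3 miRNAs of the table follow the same region. No source used here names the genome build of the deposited values, so no coordinates are stated, and the miRNA names are those of the hairpin genes, so the 2 arms of a hairpin cannot be told apart.

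In mammals the DLK1-DIO3 region carries protein-coding genes expressed from the paternal copy (DLK1, RTL1 and DIO3) and non-coding RNAs, miRNAs included, expressed from the maternal copy. The miRNAs inside RTL1 are made from a maternal transcript that runs antisense to the paternal RTL1 message. They match it perfectly, and in mouse miR-127 and its neighbours direct cleavage of Rtl1 RNA. In sheep a mutation between DLK1 and GTL2 underlies the callipyge muscle hypertrophy, in which DLK1 and RTL1 (also named PEG11) are overexpressed in muscle.

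Small RNA was sequenced from liver and from muscle of 8 female sheep: 4 ewes that had prenatal testosterone treatment (prenatal T; ewes 48, 185, 233 and 255) and 4 control ewes (98, 131, 132 and 201). This gave 16 libraries, namely prenatal T liver, control liver, prenatal T muscle and control muscle with 4 each. Ewe numbers in the labels tie the liver and the muscle library of 1 animal together. The labels do not state the dose, the age at sampling, the breed or which muscle was taken. The series title names the question, which is how excess testosterone before birth affects RNA in these tissues.

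Liver libraries held 206304 to 755344 miRNA reads and muscle libraries 113522 to 885316, and the lowest depth belonged to the muscle of prenatal T ewe 255. Of the 5 muscle fibre miRNAs looked for, MIR133 was in the table; it made 371628 to 563959 reads per 1000000 miRNA reads (RPM) in prenatal T muscle and 499836 to 547806 in control muscle. Of 4 hepatocyte miRNAs MIR148A and MIR194 were in the table, and their sum was 99722 to 146084 RPM in prenatal T liver and 107239 to 136692 in control liver, against 1865 to 3507 over the muscle libraries of both kinds. The labelled tissues thus carried their markers. Library numbers in the labels fall into a lower and a higher series. Muscle of ewe 255 is the single muscle library of the higher series, and livers of ewes 48 and 98 are the single livers of the lower series. The labels do not say what the series stand for.

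MIR127 was the most abundant of the 6 and of all 54 DLK1-DIO3 miRNAs in both tissues, ranking 23rd of 105 in liver and 27th in muscle. It made 90.5% ± 2.07 of the reads of the 6 in prenatal T liver and 90.7% ± 2.90 in control liver (SD, n = 4 each). In muscle the share was 91.4% ± 1.28 in prenatal T ewes and 91.5% ± 0.321 in control ewes. The 6 together made 1.04% ± 0.275 of the miRNA reads of prenatal T liver and 1.17% ± 0.693 of control liver, and 0.424% ± 0.161 of prenatal T muscle and 0.318% ± 0.0209 of control muscle.

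The values deposited by the authors are reads divided by a size factor of each library, here called normalised reads. The factors were made within each tissue, so liver and muscle values are not on a common scale. MIR127, which in mouse acts on Rtl1, had 3586, 2557, 3319 and 4285 normalised reads in prenatal T livers 48, 185, 233 and 255, against 7491, 3016, 3272 and 2489 in control livers 98, 131, 132 and 201. Control ewe 98 stood above all other livers, and the remaining control values lay within or just below the prenatal T range. In muscle MIR127 had 1170, 1391, 1504 and 1760 in prenatal T ewes, against 1281, 1094, 1117 and 1357 in control ewes. The muscle groups overlapped, and 3 of 4 prenatal T values lay above the highest control value.

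MIR493, the member nearest to GTL2, was the second of the 6 in abundance. It had 216, 206, 362 and 297 normalised reads in prenatal T livers (same ewe order), against 249, 274, 338 and 204 in control livers. In muscle the values were 57.9, 73.0, 83.8 and 108 in prenatal T ewes and 66.0, 66.8, 68.0 and 72.3 in control ewes. The control muscles lay close together: the spread of MIR493 over them was 0.112 times what counting noise alone gives (chi-square per degree of freedom), while it was 4.81 times in prenatal T muscle and 11.7 to 19.8 times in the liver groups. A spread below counting noise in so few libraries is no measure of how alike the ewes were. MIR433 was at 0.127 in the same control muscles.

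MIR433 was read far less often, with 4 to 25 reads in each liver and 5 to 15 in each muscle. Its normalised reads were 9.35, 11.9, 14.8 and 22.2 in prenatal T livers, against 30.6, 5.19, 16.2 and 11.7 in control livers, so that the control livers held both the highest and the lowest value. In muscle it had 7.36, 11.7, 11.2 and 28.9 in prenatal T ewes, against 4.93, 6.52, 6.89 and 6.48 in control ewes. Every prenatal T muscle lay above every control muscle, by a narrow margin in ewe 48 and by the widest in ewe 255.

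MIR432 had 46.2, 32.4, 75.7 and 91.4 normalised reads in prenatal T livers and 109, 45.5, 61.6 and 46.7 in control livers. Its muscle values were 28.9, 36.0, 33.7 and 68.4 in prenatal T ewes and 37.4, 31.8, 30.1 and 43.2 in control ewes. In both tissues the groups overlapped, and the highest values were those of ewe 98 in liver and ewe 255 in muscle, as for MIR433.

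MIR136, which lies at the far end of the RTL1 span, had 12.8, 13.6, 14.8 and 14.2 normalised reads in prenatal T livers and 10.6, 18.2, 17.2 and 14.6 in control livers. Ewe 98, the highest liver for MIR127, was the lowest for MIR136. In muscle it was read 18 times over 5 of the 8 libraries, against 121 times over 8 of 8 livers. MIR431, which in mouse muscle stem cells targets Pax7, gave 11 reads over 7 livers and 1 read over the muscles, and no library held more than 2. A count of 3 reads, taken here as the limit of detection, is worth 3.97 to 14.5 RPM in the livers and 3.39 to 26.4 RPM in the muscles; no fold is given for MIR431, since every library lay below it. Intervals and limits from reads cover counting error only, since reads with no molecular identifier may be copies of 1 molecule.

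**Figure D1:**
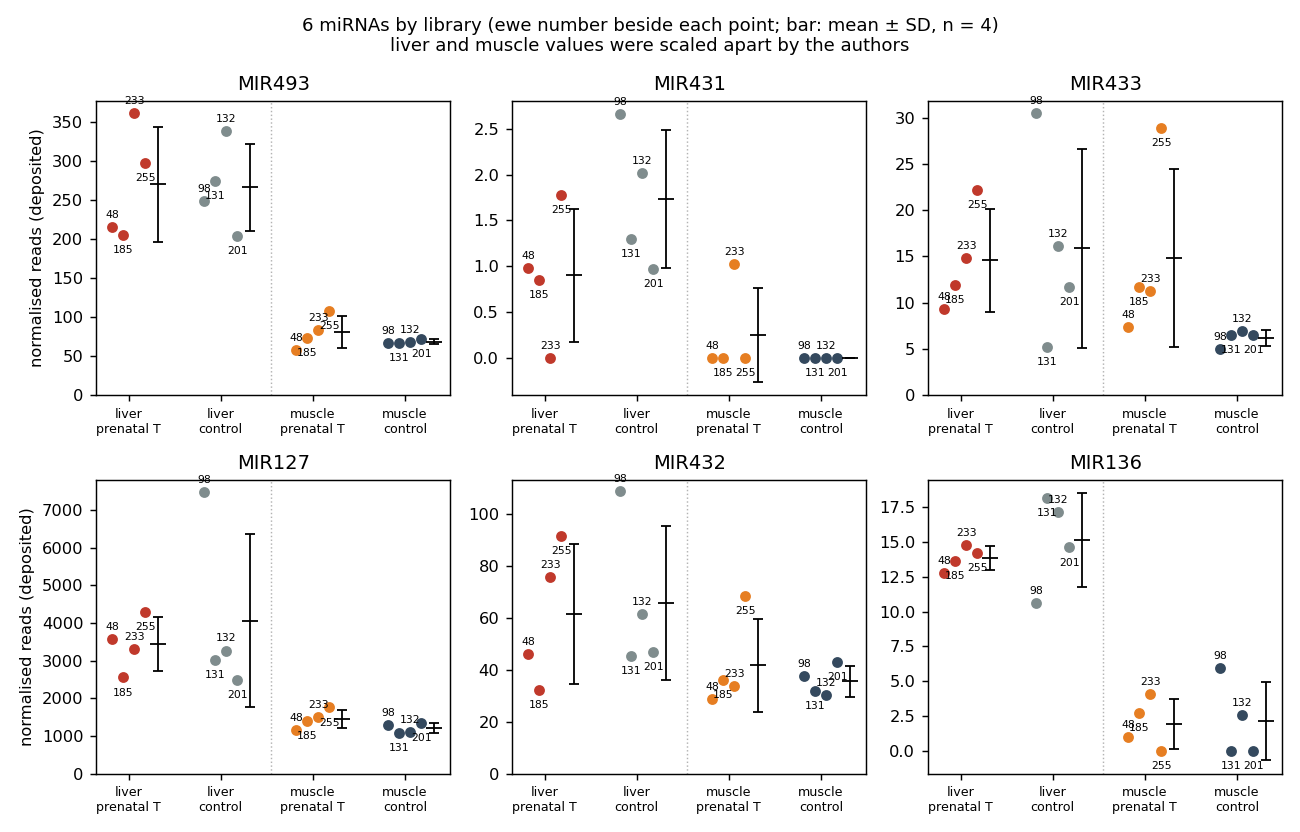
Normalised reads of the 6 miRNAs (vertical axis, 1 panel each) in the 16 libraries, with the ewe number beside each point and the mean ± SD of the 4 libraries as a bar; liver and muscle were scaled apart. Liver of control ewe 98 stands at 7491 for MIR127, and the prenatal T muscles lie at 7.36 or more for MIR433, above the highest control muscle at 6.89.

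In liver the prenatal T effect passed the test for no member. Limma was run on log2(normalised reads + 1) over the 81 liver miRNAs with a mean of at least 5, with Benjamini-Hochberg adjustment and a threshold of 0.05; it called 0 of the 81 (0%), and 0 reached an unadjusted p under 0.05. The 5 members that passed the filter had log2 fold changes of prenatal T over control between -0.12 and 0.052, with adjusted p of 0.959 to 0.988. In none of the 5 were the groups apart, as they were, with prenatal T ewes higher, in 1 of the 81 miRNAs (1.23%). MIR431 did not pass. For MIR127 the fold was 0.917 with a 95% confidence interval of 0.590 to 1.43, and for MIR493 it was 1.004 with an interval of 0.691 to 1.46, so 2-fold changes of these lay outside the intervals. For MIR433 the interval was wider, at 0.549 to 1.96. Without liver 98 the MIR127 log2 fold change was 0.22 and that of MIR433 0.43, with adjusted p of 0.878 for each.

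In muscle all 4 members that passed the filter had higher means in prenatal T ewes, and none passed the test. Limma called 0 of 64 muscle miRNAs (0%), with 5 at an unadjusted p under 0.05. The log2 fold changes were 0.97 for MIR433 (SE 0.44), 0.25 for MIR127 (SE 0.16), 0.20 for MIR493 (SE 0.25) and 0.16 for MIR432 (SE 0.32). MIR433 ranked 3 of 64 by p, at 0.0440 unadjusted and 0.559 adjusted, with a fold of 1.96 and an interval of 1.02 to 3.77. Its groups did not overlap, as in 1 of the 64 miRNAs (1.56%) with prenatal T ewes higher, which is MIR433 itself. In the other direction 1 of the 64 (1.56%) was apart too, with prenatal T ewes lower. MIR136 and MIR431 were too low in muscle to be tested.

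The muscle values leaned on ewe 255. Without that library, which also leaves the lower number series alone, the log2 fold change of MIR433 was 0.61 (adjusted p = 0.934), that of MIR493 0.051, that of MIR127 0.16 and that of MIR432 -0.10. In the muscle of ewe 255 the 11 MIR433 reads gave 96.9 RPM, with a 95% Wilson interval of 54.1 to 174. The same library held 371628 RPM of MIR133, the lowest of the 8 muscles. Of the other marker lists, 3 of 6 vessel and stromal miRNAs summed to 19512 to 28433 RPM in prenatal T muscle and 26973 to 40355 in control muscle, and MIR150, 1 of 4 immune miRNAs in the table, made 1888 to 5312 and 2933 to 3860 RPM in the same order. MIR16B, 1 of 4 erythroid miRNAs in the table, made 2069.6 to 4739 RPM in prenatal T muscle and 2240 to 2876 in control muscle. Their part in the MIR433 values was not tested. In bulk tissue, fewer cells of a type and less RNA per cell cannot be told apart.

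**Figure D2:**
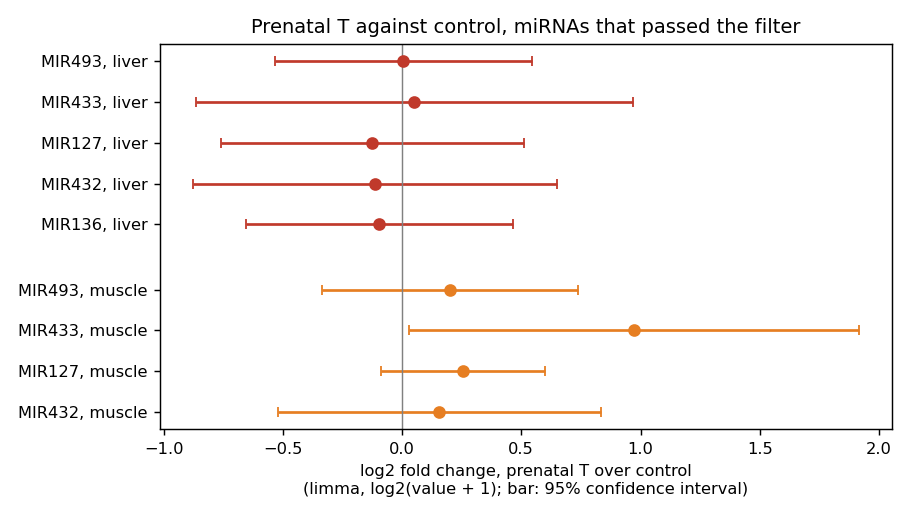
Log2 fold change of prenatal T over control ewes (horizontal axis) for the members that passed the filter, 5 in liver and 4 in muscle; bars are 95% confidence intervals from limma. Every interval includes 0 except that of MIR433 in muscle, whose adjusted p over all 64 miRNAs was 0.559.

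The other DLK1-DIO3 miRNAs were likewise not called. Of the 48, 25 were tested in liver, with 16 higher and 9 lower means in prenatal T ewes and a median log2 fold change of 0.080, beside 0.0052 over all 81. In muscle 14 were tested, with 12 higher and 2 lower and a median of 0.42, beside 0.23 for the 4 members and -0.045 over all 64. MIR494 (-1.19), MIR485 (0.74) and MIR299 (0.64) had the smallest p of these in muscle, with adjusted p of 0.651 to 0.778. Imprinted neighbours can share a transcript, so these values are not independent of each other.

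Whether the prenatal T effect differed between liver and muscle was tested in 1 fit of all 16 libraries. This fit did not pair the liver and the muscle of an ewe, so its SE and p are those of an unpaired fit. A fit on differences within each ewe was among 5 alternatives, all of which called 0 miRNAs. The difference (effect in liver minus effect in muscle) was -0.92 on the log2 scale for MIR433 (SE 0.65), -0.38 for MIR127 (SE 0.36), -0.27 for MIR432 (SE 0.50) and -0.20 for MIR493 (SE 0.35). All 4 lay below 0 and none passed, with adjusted p of 0.733 for MIR433 and 0.809 to 0.856 for the others by limma. Limma called 0 of 64 miRNAs (0%), with 2 at an unadjusted p under 0.05. The sign was not particular to the members. Of 14 other DLK1-DIO3 miRNAs tested, 13 lay below 0, with a median of -0.43 beside -0.32 for the 4 members. Over all 64 miRNAs 32 lay below 0. Without ewe 98 the value for MIR433 was -0.45 and for MIR127 -0.066.

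Liver and muscle were compared on whole reads recovered from the deposited values and scaled jointly by median-of-ratios factors, made within each kind of ewes. The main fit did not pair the liver and the muscle of an ewe, and a fit with the ewe as a block was an alternative. MIR493 was higher in liver in control ewes, with a log2 fold change of liver over muscle of 0.55 (SE 0.18, adjusted p = 0.0172 by limma), and had 0.51 in prenatal T ewes (SE 0.29, adjusted p = 0.128). This call stands against a high background: 47 of 75 miRNAs (62.7%) were called in prenatal T ewes, 27 of them (36%) higher in liver, and 58 of 76 (76.3%) in control ewes, 32 of them (42.1%) higher and 26 (34.2%) lower in liver. Of the 4 members with a mean of at least 5 in both tissues, 0 were called in prenatal T ewes and 1 in control ewes in this unpaired fit. The jointly scaled values of MIR493 lay wholly higher in liver in control ewes, as did those of 31 of 76 miRNAs (40.8%).

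MIR136 passed the filter only through liver, so its difference is given as a description, with no test. For display its reads were scaled by factors over all 16 libraries. These reads were 8.63, 8.78, 9.99 and 9.41 in prenatal T livers 48, 185, 233 and 255, against 1.48, 4.35, 6.05 and 0 in the muscles of the same ewes. In control livers 98, 131, 132 and 201 they were 6.22, 12.0, 11.5 and 10.2, against 9.20, 0, 4.15 and 0 in the muscles. Liver was higher in every ewe but 98. With factors made within each kind of ewes, as in the fits, the tissues were apart in prenatal T ewes, as for 26 of 75 miRNAs (34.7%). In control ewes they were not apart. The muscle values rest on 0 to 6 reads a library, so the size of the fold depends on the 1 added before taking logs.

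The other members gave no call on this scale in the main fit, which was not paired by ewe. MIR127 differed by 0.0039 in prenatal T ewes (SE 0.21, adjusted p = 0.985) and by 0.22 in control ewes (SE 0.26, adjusted p = 0.459). MIR432 had -0.68 (SE 0.39, adjusted p = 0.137) and -0.57 (SE 0.27, adjusted p = 0.0700) in the same order. MIR433 had -1.05 in prenatal T ewes (SE 0.46, adjusted p = 0.0591), which passed with the ewe as a block (adjusted p = 0.0288), and -0.23 in control ewes (SE 0.43, adjusted p = 0.623).

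Single ewes decided 2 outcomes in control ewes. MIR493 in control ewes no longer passed without ewe 131 (0.51, adjusted p = 0.0897) or ewe 132 (0.46, adjusted p = 0.107). MIR432 in control ewes did pass without ewe 98, at -0.79 (adjusted p = 0.00900).

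The sign of the MIR433, MIR432 and MIR127 differences depended on the scaling, while MIR493 was higher in liver under all 5 scalings in both kinds of ewes. MIR133 held 371628 to 563959 RPM in muscle, and 24 of the 71 miRNAs behind the joint factors of prenatal T ewes, and 24 of 73 in control ewes, were themselves DLK1-DIO3 miRNAs. In RPM the median miRNA moved to 1.44 in prenatal T ewes and 1.62 in control ewes, against 0.20 and 0.13 with the joint factors. On that scale MIR433 was at 0.15 and 1.10, MIR432 at 0.59 and 0.89, MIR127 at 1.30 and 1.72 and MIR493 at 1.80 and 2.03, prenatal T ewes first each time; relative to the median miRNA MIR433 and MIR432 still lay below it and MIR493 above it. With factors from miRNAs outside the region MIR433 was at -0.79 and 0.18 and MIR432 at -0.40 and -0.12. MIR493 lay above MIR127 under all 5 scalings in both kinds of ewes.

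**Figure D3:**
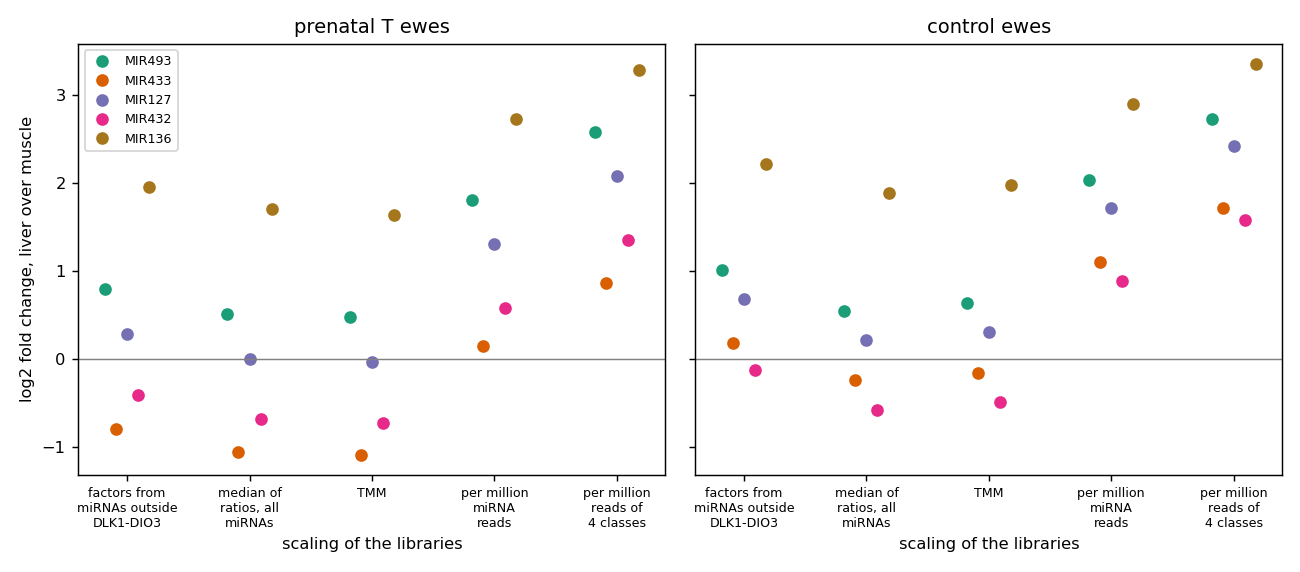
Log2 fold change of liver over muscle (vertical axis) for 5 miRNAs under 5 scalings of the libraries (horizontal axis), with prenatal T ewes on the left and control ewes on the right. MIR493 lies above MIR127 under every scaling, MIR136 rests on 0 to 6 muscle reads a library, and MIR433 in control ewes lies at -0.23 with the joint factors and at 1.10 in RPM.

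In RPM, the level of MIR127 was 9378 ± 2484 in prenatal T liver, 10763 ± 6794 in control liver, 3857 ± 1400 in prenatal T muscle and 2907 ± 199 in control muscle (SD, n = 4 each). Its liver groups overlapped each other, as did its muscle groups, and every liver lay above every muscle on this scale. In RPM the median miRNA was itself higher in liver, by 1.44 on the log2 scale in prenatal T ewes and 1.62 in control ewes. How many of all miRNAs lay apart between tissues in RPM was not counted, so this order is not particular to MIR127. MIR493 ordered the same way between tissues, with 742 ± 262 RPM in prenatal T liver, 689 ± 143 in control liver, 216 ± 99.8 in prenatal T muscle and 164 ± 9.50 in control muscle. For MIR433 the prenatal T muscles, at 42.1 ± 36.9 RPM, overlapped both liver groups, at 39.8 ± 17.1 in prenatal T ewes and 42.2 ± 30.9 in control ewes, and control muscle was lowest at 15.0 ± 2.602. For MIR432 neighbouring groups overlapped at every step, with 170.2 ± 84.0 RPM in prenatal T liver, 173 ± 89.2 in control liver, 115.3 ± 76.4 in prenatal T muscle and 85.4 ± 11.7 in control muscle.

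Liver-over-muscle values of most members lay below those of the rest of the region; this is a description of the fitted values, with no test. Of the other DLK1-DIO3 miRNAs, 19 of the 20 tested in prenatal T ewes and 16 of the 21 tested in control ewes had a mean of at least 5 in both tissues. Their median log2 fold change of liver over muscle was 1.35 in prenatal T ewes, with 11 of 19 called higher, and 1.65 in control ewes, with 12 of 16 called higher. The 4 members that met the same condition had medians of -0.34 and -0.0059, and all such miRNAs 0.097 and -0.075. Called higher were 22 of all 70 such miRNAs in prenatal T ewes and 25 of 68 in control ewes. Of the 4 members 0 and 1 were called higher in the same order. Ranked from the lowest among the DLK1-DIO3 miRNAs tested, MIR433, MIR432 and MIR127 were at places 1, 3 and 6 of 25 in prenatal T ewes and at places 4, 1 and 5 of 26 in control ewes. MIR493 was at place 10 of 25 and 8 of 26, and MIR136 at place 16 of 25 and 17 of 26. The low end was not made of RTL1 miRNAs alone: MIR154B and MIR381, which lie far inside the MIR379 cluster, were at places 2 and 5 of 25 and at places 3 and 2 of 26. In control ewes MIR381 passed the filter only through muscle, and 4 miRNAs outside the members only through liver. In prenatal T ewes 1 miRNA outside the members passed only through liver. The places of these miRNAs follow in part from the filter.

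**Figure D4:**
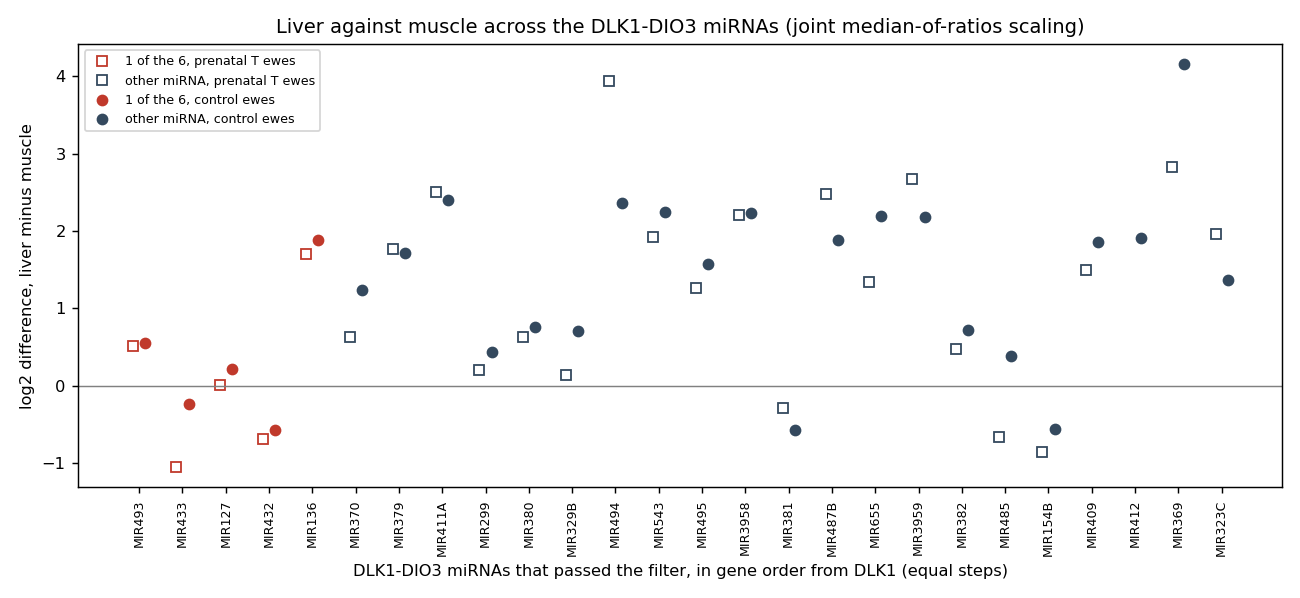
Log2 difference of liver minus muscle (vertical axis, joint factors) for the DLK1-DIO3 miRNAs that passed the filter, placed in gene order from DLK1 at equal steps; open squares are prenatal T ewes, filled circles control ewes, and the members are red. MIR433, MIR127 and MIR432 lie near or below 0, MIR136 passed the filter through liver alone, and MIR381 and MIR154B lie below 0 within the following cluster. MIR381 passed through muscle alone in control ewes. Outside the members, 4 miRNAs in control ewes and 1 in prenatal T ewes passed through liver alone.

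Ratios taken within a library need no scaling between libraries. Reads of MIR127 were 145% ± 62.4 of the summed reads of the other 48 DLK1-DIO3 miRNAs in the 8 livers and 369% ± 54.3 in the 8 muscles (SD). Paired by ewe, the log2 ratio was lower in liver by a mean of 1.41 (a difference of -1.41), in 8 of 8 ewes, with a two-sided exact sign-flip p of 0.0078, the smallest that 8 ewes allow, and 0.0469 adjusted over the 12 tests of this family. The liver of ewe 98 had the highest liver ratio, at 296%, beside a lowest muscle ratio of 294% in ewe 131, so the tissue ranges overlapped through that library. MIR493 was 10.3% ± 1.59 of the same sum in liver and 20.4% ± 2.57 in muscle, a log2 difference of -0.997 in 8 of 8 ewes (exact p = 0.0078, adjusted p = 0.0469), with no overlap between tissues. Both ratios had the same sign in the 3 ewes whose 2 libraries share a number series, at -1.57 to -0.65 for MIR127 and -1.29 to -0.99 for MIR493, as in the 5 ewes whose libraries do not, at -1.90 to -1.21 and -1.20 to -0.61. With any 1 ewe left out the mean differences were -1.52 to -1.34 and -1.05 to -0.95, and the adjusted p were 0.0625 or 0.0938; the smallest p that 7 ewes allow is 0.0156. These ratios were chosen after the values had been seen, and their 12 tests were adjusted apart from 9 tests fixed earlier. In that family of 9, the MIR433 to MIR127 ratio had the same exact sign-flip p of 0.0078 and did not pass (0.0703 adjusted). Passing at 0.0469 thus depends on how the tests were split into families. As a share, the 6 members made 59.1% ± 1.52 of all DLK1-DIO3 miRNA reads in prenatal T liver and 60.8% ± 10.1 in control liver, and 79.4% ± 1.26 in prenatal T muscle and 80.4% ± 3.08 in control muscle.

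Among the members, the ratios that follow did not pass after adjustment over all 8 ewes. MIR433 reads were 0.404% ± 0.123 of those of MIR127 in the livers and 0.742% ± 0.391 in the muscles, with a log2 difference of -0.84 in 8 of 8 ewes (exact sign-flip p = 0.0078, 0.0703 adjusted over 9 tests). Relative to MIR493 the difference was -1.26, in 7 of 8 ewes (exact p = 0.0156, adjusted p = 0.0703). MIR493 relative to MIR127 was higher in liver by 0.41 in 7 of 8 ewes (exact p = 0.0625, adjusted p = 0.112). Here the 5 ewes with libraries of both number series gave 0.57 to 0.96, and of the 3 ewes with 1 series ewe 48 gave 0.28, ewe 255 0.16 and ewe 98 -0.64. Ewe 98 was also the 1 ewe of opposite sign for MIR433 relative to MIR493, at 0.62, where the other 2 same-series ewes gave -1.56 and -1.87. Without ewe 98 the 3 differences were -0.96, -1.53 and 0.57, each with 1 sign over the 7 ewes left. Each exact sign-flip p was then 0.0156, the smallest that 7 ewes allow (0.0469 adjusted). For MIR433 to MIR493 and MIR493 to MIR127, leaving out the ewe of opposite sign fixed this p. For MIR433 to MIR127 ewe 98 had the sign of the other ewes, at -0.021, so that ratio had 1 sign with or without it. Without ewe 255 they were -0.72, -1.17 and 0.45, with adjusted p of 0.0938, 0.0938 and 0.211 by the same test. MIR432 was 1.71% ± 0.386 of MIR127 in the livers and 2.86% ± 0.506 in the muscles, a difference of -0.76 in 7 of 8 ewes (exact p = 0.0156, 0.0625 adjusted over 12). MIR136 relative to MIR127 was higher in liver by 1.65 in 7 of 8 ewes, with ewe 98 as the exception. This is a description only, since MIR136 passed the filter only through liver. The 3 muscles without a MIR136 read enter it through the 0.5 reads added, and with 1 read added the difference was 1.21.

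**Figure D5:**
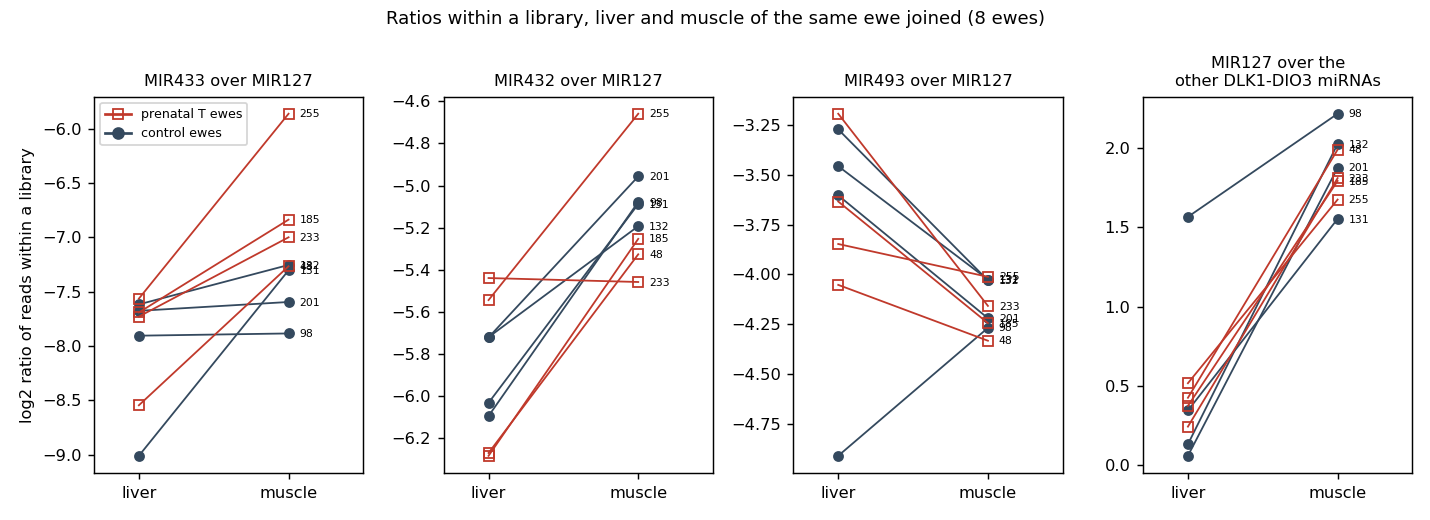
Log2 ratios of reads within a library (vertical axes) for 4 pairs, with liver on the left, muscle on the right and the 2 libraries of an ewe joined by a line; open squares are prenatal T ewes and filled circles control ewes. MIR127 over the other DLK1-DIO3 miRNAs is lower in liver in all 8 ewes, and ewe 98 starts highest in that panel.

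Prenatal T and control ewes were also compared by these ratios. In muscle MIR433 was 12.7%, 16.0%, 13.4% and 26.8% of MIR493 in prenatal T ewes 48, 185, 233 and 255, against 7.46%, 9.76%, 10.1% and 8.96% in control ewes 98, 131, 132 and 201. The groups did not overlap, and the log2 difference was 0.82, with an exact permutation p of 0.0286, the smallest that 4 against 4 allow, and 0.0857 adjusted over 9. Without ewe 255 the difference was 0.58 (exact test, adjusted p = 0.0938). Relative to MIR127, MIR433 was 0.965% ± 0.461 in prenatal T muscle and 0.518% ± 0.108 in control muscle, a log2 difference of 0.77 (exact p = 0.0571, n = 4 each, adjusted p = 0.112), which was 0.47 without ewe 255. In liver the same 2 ratios differed by 0.041 and 0.17 (exact p of 0.971 and 0.629). MIR127 relative to the other DLK1-DIO3 miRNAs differed by -0.14 in liver and -0.10 in muscle, and MIR493 by -0.0072 and -0.15, with adjusted p of 0.891 to 0.971 in exact tests.

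Several pairs of members varied together among the ewes of a tissue, more of them by Pearson's r than by rank. Over 8 ewes MIR127 and MIR493 in muscle had Pearson's r of 0.89 (exact permutation p = 0.00233, 0.0210 adjusted over 9 relations) and Spearman's rho of 0.81 (exact p = 0.0218, adjusted p = 0.196). Without the 2 ewes farthest from the median of MIR127, ewes 131 and 255, r was 0.81. MIR127 and MIR433 (r = 0.83, rho = 0.62, exact p of 0.0114 and 0.115) and MIR433 and MIR493 (r = 0.88, rho = 0.67, exact p of 0.0115 and 0.0831) also varied together in muscle, with adjusted p of 0.0345 for r. Their r was 0.57 and 0.61 without 2 ewes, 1 of them ewe 255 each time, so these relations rested on those ewes. In liver MIR127 and MIR432 had r = 0.84 and rho = 0.74 (exact p of 0.00459 and 0.0458, adjusted p of 0.0321 and 0.160 over 7 relations), and r was 0.83 without ewes 98 and 201. MIR433 and MIR432 in liver had r = 0.78 and rho = 0.83 (exact p of 0.0201 and 0.0154, adjusted p of 0.0355 and 0.108), and r was 0.80 without ewes 98 and 131. MIR432 in muscle had r = 0.83 with MIR127 and 0.85 with MIR493 (exact permutation, adjusted p = 0.0355 each), which were 0.57 without ewes 131 and 255 and 0.10 without ewes 48 and 255, so these rested on those ewes too. The rho of none of the 16 relations passed after adjustment. Between the liver and the muscle of the same ewe, r was 0.10 for MIR127, 0.23 for MIR433, 0.42 for MIR493 and 0.41 for MIR432, with exact p of 0.311 to 0.814.

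Likeness was measured as Pearson's r of the deviations from the group means over the 16 libraries, across 64 miRNAs, as a description with no test; libraries of an ewe and of a class share depth and factors. MIR127 was most like MIR432 (r = 0.82), MIR433 (0.70) and MIR133 (0.67). MIR433 was most like MIR432 (0.81), MIR127 (0.70) and MIRLET7B (0.68), and MIR432 was most like MIR127, MIR433 and MIR493 (0.65). MIR493 was most like MIR409 (0.75) and MIR543 (0.72), both of the MIR379 cluster, and then MIR432 (0.65). The 2 miRNAs most like MIR127, MIR433 or MIR432 were thus other miRNAs inside RTL1, and the 2 most like MIR493 were not.

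Other transcripts of the region were measured in the same libraries. LOC105606646, a locus of the long non-coding RNA table that the annotation calls protein-coding and whose span covers MIR432, MIR136 and the MIR379 cluster, had 259 ± 70.6 normalised reads in prenatal T liver and 243 ± 39.3 in control liver, and 111 ± 51.4 in prenatal T muscle and 81.3 ± 8.97 in control muscle (SD, n = 4 each). Its log2 fold changes of prenatal T over control were 0.062 in liver (adjusted p = 0.903) and 0.32 in muscle (adjusted p = 0.853 by limma). Whether this locus counts the same reads as the miRNAs was not tested. GTL2, the long non-coding RNA at the start of the maternal transcripts, gave 5 reads in prenatal T and 4 in control livers and 8 in prenatal T and 7 in control muscles and was not tested. Of 33 small nucleolar RNAs of the region, 20 had a read in liver and 18 in muscle, and 1, LOC114109215, passed the filter. It had 15.5 ± 7.45 normalised reads in prenatal T liver and 14.4 ± 5.81 in control liver, and 9.02 ± 10.3 in prenatal T muscle and 2.72 ± 0.371 in control muscle, with adjusted p of 0.982 and 0.873. In prenatal T muscles 48, 185, 233 and 255 the values were 1.547, 5.40, 4.88 and 24.3. Without ewe 255 their mean was 3.95 ± 2.09 (SD, n = 3), and the mean over all muscles was 3.25 in place of 5.87, below the filter.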

How the data were processed

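Small RNA libraries of liver and muscle from 4 prenatal T and 4 control ewes were used. Read trimming and mapping tools are listed, without settings or build, in the submitters' processing notes: cutadapt 3.2, featureCounts 1.6.1 and STAR 2.6.0c. Each deposited value is a signal in which the authors divided the reads of a library by its size factor, set per RNA class and per tissue. All 1432 miRNA values above 0 were whole multiples of 1 read within 0.001 reads, which gave the reads and the depth.

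Prenatal T was compared with control by limma 3.58.1 (R 4.3.3, variance trend) on log2(value + 1) for miRNAs with a mean of at least 5, with adjustment over all miRNAs tested. Fold changes on this scale understate those of low miRNAs. Tissues were compared on reads divided by joint median-of-ratios factors made within each kind of ewes, without pairing by ewe in the main fit. Ratios were compared by exact tests after adding 0.5 reads. edgeR 4.0.16 and DESeq2 1.42.0 on the recovered reads were alternatives. The fits were tested on simulated data.

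The members, lists and tests were chosen with earlier results of these data known. Named miRNAs are the members, their 3 most alike miRNAs, the DLK1-DIO3 miRNAs with the 3 smallest p in a comparison, the cell type markers in the table, with MIR154B and MIR381 named after their values were seen. Replicate libraries differed by 17.8 to 208 times counting noise (chi-square per degree of freedom, 24 pairs), so none was a duplicate. P-values measure the spread between ewes. Liver and muscle with the same number come from the same ewe; their deviations from the group means correlated at -0.17 to 0.44 over miRNAs.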

Additional observations from a re-analysis of the deposited data

Results flagged for a closer look

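In 5 of 52 groups of 4 libraries looked at, a single library lay far from the other 3; chance gives about 1 in 20. MIR127 had 7491 normalised reads in the liver of control ewe 98, where the other control livers had 2489 to 3272. That library held 5636 MIR127 reads, or 20870 RPM with a 95% Wilson interval of 20338 to 21416. The same library held 2274 RPM of the muscle fibre miRNA MIR133, against 353 to 639 RPM in the other control livers and 290 to 470 RPM in the prenatal T livers. This was 0.419% of the MIR133 level in the muscle of the same ewe, and that share of its muscle MIR127 level comes to 12.2 RPM. The share takes both miRNAs in equal proportion, and the cause of the high MIR127 value was not tested. MIR136 fell on the other side in this liver, with a log2 ratio of MIR136 to MIR127 of -9.37.

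The log2 ratio of MIR433 to MIR127 was -8.55 in the liver of prenatal T ewe 48, from 19 reads of MIR433. The log2 ratio of MIR493 to the other DLK1-DIO3 miRNAs was -2.45 in the muscle of prenatal T ewe 185, a small step below the other 3 prenatal T muscles, which lay close together. MIR431 had 1.02 normalised reads in the muscle of prenatal T ewe 233, which is the 1 read of this miRNA in all muscles.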

How the results depend on the processing

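In the comparison of prenatal T with control ewes, no alternative called a member. MIR433 in liver was at -0.10 with edgeR and -0.15 with DESeq2, and MIR432 in muscle at -0.10 with the number series as a covariate, which removes ewe 255. With 1 ewe left out, liver values were -0.15 to 0.13 for MIR493, -0.35 to 0.43 for MIR433, -0.31 to 0.22 for MIR127 and -0.34 to 0.16 for MIR432, and MIR432 in muscle -0.10 to 0.30. No paired analysis was possible because prenatal T and control ewes are different animals.

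Between tissues, values in RPM were, in prenatal T ewes, 1.80 for MIR493, 0.15 for MIR433, 1.30 for MIR127 and 0.59 for MIR432, and in control ewes 1.10 for MIR433, 1.72 for MIR127 and 0.89 for MIR432. Scaled by the summed reads of the 4 RNA classes, 72 miRNAs were called in prenatal T ewes against 47, with MIR493 at 2.58, MIR433 at 0.87, MIR127 at 2.08 and MIR432 at 1.35; in control ewes MIR433 was at 1.72, MIR127 at 2.42 and MIR432 at 1.58. With factors without DLK1-DIO3 miRNAs, MIR493 was at 0.80 in prenatal T ewes and MIR433 at 0.18 in control ewes, where edgeR gave 0.19. In prenatal T ewes MIR433 passed at -0.84 with a pseudocount of 5, -1.05 with no variance trend, -1.09 with TMM, -1.05 with the ewe as a replicate block, -1.04 with edgeR and -1.13 with DESeq2; MIR127 was at -0.034 with TMM and -0.0011 with DESeq2, and MIR136, which passed the filter only through liver, was at 1.48 with DESeq2. The block changed no other call. The cause of these differences was not tested. Without 1 ewe, prenatal T ewes gave -0.13 to 0.17 for MIR127 and 1.13 to 2.06 for MIR136, and control ewes 0.46 to 0.65 for MIR493, -0.67 to 0.16 for MIR433, -0.065 to 0.42 for MIR127, -0.79 to -0.39 for MIR432 and 1.31 to 2.69 for MIR136. The comparison within a number series was not run in control ewes, where it leaves 1 ewe.

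For log2 ratios without 1 ewe, liver minus muscle was -0.96 to -0.72 for MIR433 to MIR127 and 0.34 to 0.57 for MIR493 to MIR127. It was -1.53 to -1.11 for MIR433 to MIR493. Relative to the other DLK1-DIO3 miRNAs it was -1.52 to -1.34 for MIR127 and -1.05 to -0.95 for MIR493. This last pair lost the call in every case. Its exact sign-flip p stayed at 0.0156, the smallest that 7 ewes allow, and adjustment over 12 tests gave 0.0625 or 0.0938. Prenatal T minus control in liver was -0.15 to 0.39, -0.24 to 0.31 and -0.40 to 0.46 for the first 3 ratios, -0.14 to 0.14 for MIR432 and -0.48 to 0.21 for MIR136 to MIR127, and -0.29 to 0.21 and -0.12 to 0.10 for MIR127 and MIR493 to the other miRNAs; MIR136 to MIR127 in muscle was -0.20 to 1.05. Without 2 ewes, r was -0.28 for MIR433 with MIR432 in muscle and -0.24 for MIR432 between tissues.

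The MIR432, MIR136 and other-miRNA ratios and the relations with MIR432 were chosen after seeing the data. Depth limits MIR433, MIR136 and MIR431, with at most 26 reads in a library.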
